A study of Mus musculus with 29 samples.

Results

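The 26458 Atoh1 sites described here are the genomic positions at which Atoh1 was called bound in iAtoh1 or iP+A embryoid bodies. The iAtoh1 cells expressed a transgene for Atoh1 alone, and the iP+A cells transgenes for Pou4f3 and Atoh1. The sites were obtained by joining the 15568 kept peaks of the iAtoh1 list with the 18949 kept peaks of the iP+A list. The 9 lists of the series hold 175162 kept peaks. Windows of 300 bp centred on the summits, the points of highest signal, were taken as 1 site where they shared at least 1 bp. This gave 7609 sites of both lists (shared), 7701 sites of the iAtoh1 list only (iAtoh1-only) and 11148 sites of the iP+A list only (iP+A-only).

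The cells were mouse embryonic stem cells of the A2loxCre parental line, each carrying a doxycycline-inducible cassette. In iAtoh1 the cassette encoded Atoh1 with a 3xFLAG tag and the fluorescent protein Venus. In iP+A it encoded 3xMyc-tagged Pou4f3, 3xFLAG-tagged Atoh1 and Venus from 1 transcript. All cells were grown as embryoid bodies, received 2 µg/ml doxycycline from day 4 and were collected at day 6, after 48 h, so the inducer and Venus were common to both groups. Atoh1 was precipitated through FLAG in 2 libraries per line, which were merged before peaks were called. Neither list therefore carries a value per replicate, each line stands for 1 group, and no uninduced list was used here. Another 7 lists served as further readouts. Atoh1 had also been mapped in iG+A (Gfi1 with Atoh1) and in iGPA (Gfi1 with both), and Pou4f3, through its Myc tag, in 4 lines: alone (iPou4f3), with Gfi1 (iG+P), with Atoh1 (iP+A) and with both (iGPA). The last list was that of Gfi1 in iGPA, from 1 library. The paper reports relatively low enrichment over input for its antibody.

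Atoh1 is a proneural basic helix-loop-helix transcription factor that binds E-boxes, the hexamers CANNTG, as a dimer with an E protein, and it is required for sensory hair cells of the inner ear to form. Pou4f3 is a POU-homeodomain factor that binds AT-rich sequence and is needed for hair cells to mature and survive. Gfi1 is a zinc finger repressor that is also needed for hair cell survival. Comparing both Atoh1 lists asks where Atoh1 was found when Pou4f3 was, or was not, expressed from the cassette in the same cells. Expression of the cells' own Pou4f3 gene was not examined here.

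The sequences below are examples of strong sites of each class, 50 bases to each side of the summit on the plus strand of mm9 (NCBIM37). Capitals mark CAGCTG, and CAGATG on either strand, and matches to ATAATTAAT with at most 1 mismatch on either strand (called the Pou4f pattern). These are a shared site in an intron near Dnahc2 (chr11:69273493-69273593), a shared site in an intron near Sh3rf3 (chr10:58387882-58387982), an iAtoh1-only site in an intron, nearest to the start of Chst15 (chr7:139623080-139623180), and iP+A-only sites between genes, nearest to Gm9961 (chr16:11782360-11782460) and to Thsd7a (chr6:12777869-12777969). The last sequence is a shared site upstream of Nhlh1 (chr1:173987885-173987985), a neuronal basic helix-loop-helix gene, where the Atoh1 fold differed most in favour of iP+A.
Dnahc2, shared: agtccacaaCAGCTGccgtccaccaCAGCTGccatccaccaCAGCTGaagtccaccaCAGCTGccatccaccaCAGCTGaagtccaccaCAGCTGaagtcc
Sh3rf3, shared: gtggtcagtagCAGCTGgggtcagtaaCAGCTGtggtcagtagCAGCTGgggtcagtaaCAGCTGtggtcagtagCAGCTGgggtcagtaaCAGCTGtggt
Chst15, iAtoh1-only: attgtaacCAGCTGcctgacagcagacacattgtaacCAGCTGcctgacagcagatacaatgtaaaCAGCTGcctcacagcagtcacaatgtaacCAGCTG
Gm9961, iP+A-only: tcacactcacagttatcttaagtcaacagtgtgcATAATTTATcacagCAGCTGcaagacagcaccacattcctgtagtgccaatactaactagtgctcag
Thsd7a, iP+A-only: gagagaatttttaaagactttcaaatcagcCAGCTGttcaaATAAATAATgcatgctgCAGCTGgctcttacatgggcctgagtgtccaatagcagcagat
Nhlh1, shared: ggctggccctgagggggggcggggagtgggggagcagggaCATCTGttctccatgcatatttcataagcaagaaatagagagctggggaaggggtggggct

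The shared site at Dnahc2 had a fold enrichment over the local background of 43.9 in iAtoh1 and 45.7 in iP+A, the highest pair of values. Its printed sequence holds 6 CAGCTG and no Pou4f match. At the site nearest to Sh3rf3, 111125 bp from its start, the folds were 30.2 in iAtoh1 and 44.4 in iP+A, again with 6 CAGCTG. The Chst15 site, the strongest of the iAtoh1-only class, reached 8.55 in iAtoh1 and holds 4 CAGCTG in a degenerate repeat. It was not typical: of the 100 strongest iAtoh1-only sites, 8 held CAGCTG 3 or more times in 250 bp, against 40 of the 100 strongest shared sites. The Gm9961 site, the strongest of the iP+A-only class, reached 21.6 in iP+A and has 1 Pou4f match and 1 CAGCTG. The Thsd7a site reached 20.9 and has 1 Pou4f match between 2 CAGCTG. Both were also in the iGPA Atoh1 list and in all 4 Pou4f3 lists, and neither was in the iG+A Atoh1 list.

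Many sites lay in a few unusual places. The overlap and the main differences between classes are given below with and without them, and other values are over all sites unless stated. Of 2382 megabases that held a site, 48 held at least 50 sites each, against a median of 6. This limit was chosen after the values had been seen. These crowded megabases held 6644 sites (25.1%), of which 3624 were in 14 megabases of chromosomes 4 and 14, and up to 515 in 1 megabase. Genes nearest to many sites included Prl2c3, a placental prolactin-family gene, with 172 sites, and the predicted genes Gm16387 with 104 and Gm13151 with 91. The 48 bases at the summit occurred again elsewhere in the reference at 65.6% of the crowded sites and 14.4% of the others. The local background used by the peak caller was above its most frequent value for 35.0% of the iAtoh1 peaks and 42.4% of the iP+A peaks there, against 4.02% and 5.01% elsewhere. The crowded megabases took 36.5% of the iAtoh1-only class (95% interval 35.4 to 37.6), 23.2% of the shared class (22.3 to 24.2) and 18.5% of the iP+A-only class (17.8 to 19.3). Whether these peaks are bound by Atoh1 was not tested.

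Of 15310 iAtoh1 sites, 49.7% (48.9 to 50.5) recurred in iP+A, and of 18757 iP+A sites, 40.6% (39.9 to 41.3) recurred in iAtoh1. Outside the crowded megabases, these shares were 54.4% (53.5 to 55.4) and 39.1% (38.4 to 39.9). All intervals on shares are exact 95% Clopper-Pearson intervals and cover counting error only, because neither list holds replicates. The most frequent local background recovered from the peak values was 7.19 fragments in iAtoh1 and 8.30 in iP+A, and its part in the overlap was not tested. Library depths were not used.

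The share in common depended on strength. With these left out, 23.7% (21.0 to 26.6) of iAtoh1 sites with −log10 p under 5 and 44.1% (42.8 to 45.3) of those from 5 to 10 were shared. This rose to 79.6% (77.9 to 81.3) from 10 to 20 and 95.4% (93.9 to 96.6) at 20 or more, where 47 of 1013 sites were iAtoh1-only. The iP+A sites gave 13.5%, 27.1%, 55.0% and 74.0% (72.0 to 76.0) over the same ranges. Among the strongest iP+A sites, 496 of 1910 were thus iP+A-only. A called peak that was not kept by the authors lay at 18.8% of the iAtoh1-only sites in the iP+A list and at 10.8% of the iP+A-only sites in the iAtoh1 list.

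**Figure D1:**
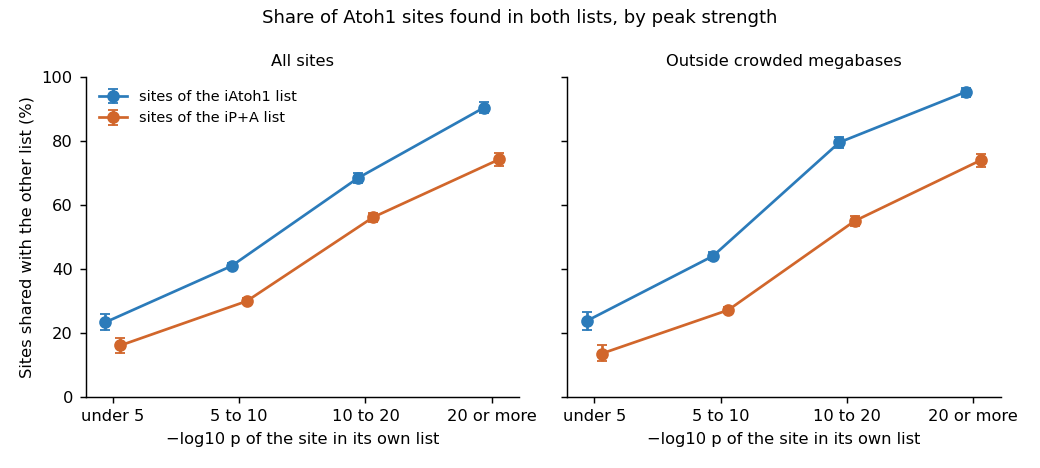
Percent of the sites of each Atoh1 list that are shared with the other list (vertical axis) in 4 ranges of the site's −log10 p (horizontal axis), for all sites (left) and outside the crowded megabases (right). Points are shares and bars exact 95% intervals. At 20 or more outside the crowded megabases, 95.4% of the iAtoh1 sites but 74.0% of the iP+A sites are shared.

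The classes do not split at a natural gap. Among iAtoh1 peaks, 251 lay in the last 50 bp inside the joining distance from an iP+A summit, with a median fold of 3.05, and 222 in the first 50 bp outside it, with a median of 3.07. For iP+A peaks the counts were 224 and 219, with medians of 3.01 and 2.90. Of the unshared sites, 11.8% of iAtoh1-only and 7.71% of iP+A-only were within 1 kb of a shared site.

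At shared sites, the folds of Atoh1 were close in both lines. These sites were kept in both lists, so a site strong in 1 line and not kept in the other is left out. The likeness is therefore partly set by how the class was made. The median fold was 3.54 in iAtoh1 and 3.55 in iP+A, the median log2 ratio of iP+A to iAtoh1 was 0.0029, and 50.7% of sites were higher in iP+A. Across the 7609 sites, which share libraries and are not independent, Pearson's r of the log2 folds was 0.68 and Spearman's rho 0.54. Summits lay a median of 28 bp apart and within 50 bp at 69.3% of the sites. The fold differed at least 2 times in favour of iP+A at 128 sites and in favour of iAtoh1 at 49 sites. Of the 128, 53.1% (44.1 to 62.0) had a Pou4f3 peak in iP+A, against 22.4% (11.8 to 36.6) of the 49 and 19.6% (18.7 to 20.5) of the 7432 others. Without crowded megabases, these shares were 51.2%, 12.8% and 12.1%.

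The ratio was highest at the Nhlh1 site printed above, at −231 bp from the gene start, where the fold was 3.05 in iAtoh1 and 21.4 in iP+A. This site holds a match to the 10-letter E-box pattern known as AtEAM and was in all 9 lists. It lies in a crowded megabase of chromosome 1. The next 2 ratios were at a site nearest to Dact1, a Wnt pathway gene, with 2.44 against 13.6, and at 1810041L15Rik, with 2.93 against 15.7. Both had a Pou4f3 peak in iP+A. The 3 lowest ratios were in simple repeats: a 4 bp repeat in an intron of Cpeb4 with 21.6 in iAtoh1 and 3.72 in iP+A, and TTAGGG repeats nearest to Chst2 with 8.31 and 2.11 and nearest to Tnks with 9.75 and 2.96. TTAGGG, the telomere unit, occurred at least 2 times in a row near the summit of 20 shared, 12 iAtoh1-only and 5 iP+A-only sites.

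**Figure D2:**
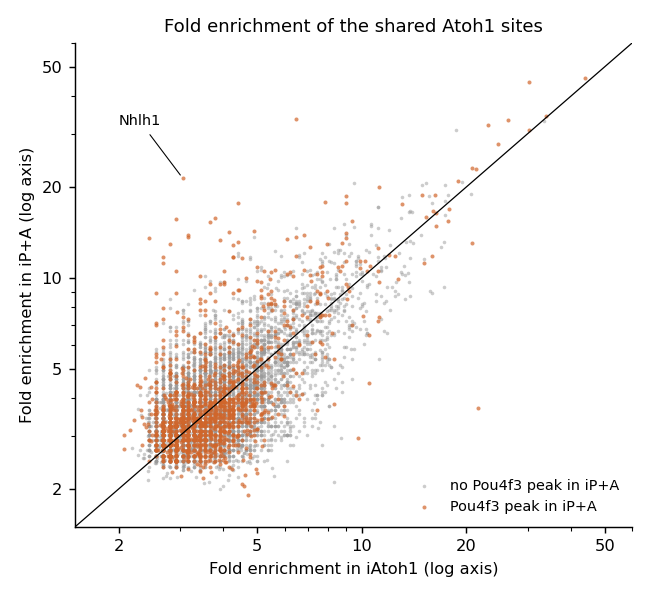
Fold enrichment of Atoh1 at each of the 7609 shared sites in iAtoh1 (horizontal, log axis) and iP+A (vertical, log axis). Each point is a site, coloured when a Pou4f3 peak was called there in iP+A, and the line marks equal folds. The Nhlh1 site stands far above the line at 3.05 and 21.4, and the Cpeb4 repeat far below it at 21.6 and 3.72.

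The strongest shared sites were rich in repeated E-boxes. Of the 100 shared sites with the highest lower fold (9.65 or more), 83 held CAGCTG in the 250 bp around the summit, 40 held it 3 or more times, and 18 lay in tandem repeats with units of 13 to 60 bp. Of all shared sites, 50.8% held CAGCTG and 5.83% held it 3 or more times. The other 3 named shared sites were of this kind. Nearest to 6720456H20Rik, the folds were 34.0 in iAtoh1 and 34.4 in iP+A. They were 33.5 and 33.1 nearest to Spata17, and 30.3 and 30.8 at −45997 bp from the start of Cck, the cholecystokinin gene. No site among these 100 held the Pou4f pattern, which with a count of 0 allows a share of up to 3.00% (3 counts of 100). Of the 100, 99 were also in the iG+A list and 99 in the iGPA list.

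E-boxes were most frequent at shared sites. The AtEAM pattern occurred in the 250 bp around the summit at 19.3% of shared sites (18.4 to 20.2), 10.8% of the iAtoh1-only class (10.1 to 11.5) and 12.98% of the iP+A-only class (12.4 to 13.6). It occurred in 2.08% to 2.29% of equal windows centred 1000 bp to each side and in 2.13% of all 250 bp tiles of the genome. The excess of shared over iAtoh1-only sites was 8.48 percentage points (Newcombe 95% interval 7.35 to 9.60, the same sign on 19 of 20 chromosomes), and 8.55 points outside the crowded megabases. The excess of iP+A-only over iAtoh1-only sites, 2.19 points (1.25 to 3.12, 13 of 20 chromosomes), was not kept there: it was −0.51 points (−1.78 to 0.73), from 15.1% and 15.6%. In crowded megabases only 3.13% of sites held the pattern. Its matches were central in every class, at a median of 21 bp from the summit in shared, 25 bp in iAtoh1-only and 23 bp in iP+A-only sites. Shared sites were also stronger, with a median −log10 p in iAtoh1 of 9.42 against 6.21 for iAtoh1-only sites. Outside the crowded megabases, iAtoh1 sites from 5 to 10 held AtEAM at 19.99% when shared and 15.25% when iAtoh1-only. From 10 to 20 these shares were 28.25% and 21.73%.

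Of the E-box cores, CAGCTG stood out most from its surroundings. It was found at 50.8% of shared, 28.7% of iAtoh1-only and 34.5% of iP+A-only sites, against 10.6% to 11.7% of the flanks and 8.95% of genome tiles. CAGATG was found at 41.2%, 31.1% and 35.2%, against 17.9% to 18.6% of the flanks and 18.5% of tiles. CATATG, the third core tested with them, was near its surroundings, at 6.03%, 6.53% and 6.73% with 5.76% to 6.21% in the flanks. Outside the crowded megabases, the iP+A-only and iAtoh1-only classes were close, with CAGCTG at 39.6% and 39.2% (difference 0.33 points, −1.37 to 2.02) and CAGATG at 38.6% and 37.2% (1.36 points, −0.33 to 3.04). CAGCTG and CAGATG overlap the AtEAM pattern, so these counts are not separate observations.

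The Pou4f pattern separated the iP+A-only class from both others. It was found at 14.1% of the iP+A-only class (13.4 to 14.7), 5.01% of the shared class (4.53 to 5.52) and 5.92% of the iAtoh1-only class (5.40 to 6.47). It was found in 8.84%, 8.63% and 8.47% of their flanks in that order and in 11.7% of genome tiles, so shared and iAtoh1-only sites were below their surroundings while the iP+A-only class was above its flanks. The excess over shared sites was 9.08 points (8.26 to 9.88, 19 of 20 chromosomes), and 12.1 points (11.2 to 12.9) outside the crowded megabases, where the 3 shares were 14.7%, 2.57% and 2.78%. Matches lay nearer to the summit in iP+A-only sites, at a median of 43.5 bp, than in shared (66.5 bp) or iAtoh1-only sites (68.0 bp). The unaltered 9 letters were found at 131 iP+A-only sites (1.18%), 10 shared sites (0.131%) and 15 iAtoh1-only sites (0.195%).

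Most iP+A-only sites with a Pou4f match also had an E-box in the same 250 bp. CANNTG was found at 83.4% of all iP+A-only sites, and short gaps are partly set by the shared search window. Of the 1570 sites with a Pou4f match, 1421 also had a CANNTG, a median of 23 bp away, with 712 of them 11 to 50 bp apart. At shared sites 308 had both, a median of 36 bp apart. For AtEAM and Pou4f the median gap was 37.0 bp at 263 iP+A-only sites and 76.5 bp at 40 shared sites. Whether these gaps differ from those of unrelated positions was not tested. CANNTG is common, in 73.8% of genome tiles, and GC content was 51.1% at iP+A-only, 53.1% at shared and 48.6% at iAtoh1-only sites. The part of base composition in these differences was not tested. The octamer of POU factors, ATGCAAAT, was found at 1.51% to 2.00% of sites in each class and at 1.69% to 2.42% of the flanks. The 2 words searched for Gfi1, AATCACTGC or else AATCACAGC, were at 0.486% to 0.780% of sites. They were in 0.421% to 0.565% of the flanks and 0.519% of genome tiles.

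**Figure D3:**
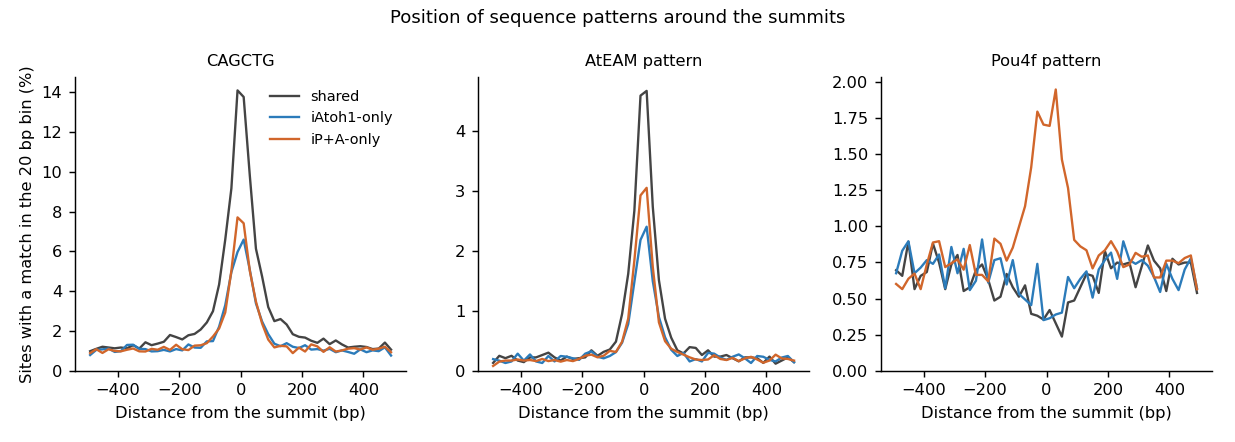
Percent of sites with a match to CAGCTG (left), AtEAM (middle) or the Pou4f pattern (right) in 20 bp bins (vertical axis), against distance from the summit in bp (horizontal axis), by class. CAGCTG and AtEAM peak at the summit in all 3 classes. The Pou4f pattern peaks there in iP+A-only sites and dips in the other 2 classes.

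When 6-letter words were ranked by their share in a class over its flanks, the leading 5 of every class contained CpG. In the iP+A-only class the word at the top was CGCGCG, in 5.98% of sites and 1.11% of flanks. Among 8-letter words, shared sites were led by AGCTGTCG (1.95% of sites), CGCAGGCG (1.43%), GCAGCTGC (8.78% against 0.769% of flanks), CAGCTGCG (4.26%) and AACAGCTG (12.3% against 1.18%), of which the last 3 contain CAGCTG. Those of the other classes consisted of G and C or had 1 A, such as GCGGCCGC in iAtoh1-only sites (1.13%) and CCGCGCGG in iP+A-only sites (1.06%). CpG-rich sequence is a feature of promoters, which were unevenly spread over the classes.

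A summit lay within 1 kb of a transcript start at 24.96% of the shared class (24.0 to 25.9), 25.2% of the iP+A-only class (24.4 to 26.01) and 16.6% of the iAtoh1-only class (15.8 to 17.5). The shared class exceeded the iAtoh1-only class by 8.34 points (7.06 to 9.61, 19 of 20 chromosomes), and by 8.42 points outside the crowded megabases. Introns held 33.5%, 31.7% and 33.9% of the shared, iP+A-only and iAtoh1-only sites, and 38.0%, 40.4% and 46.5% were intergenic. Coding exons held 1.20% to 1.72%. Sites over 50 kb from any start made up 18.5% of the iP+A-only class, 12.7% of the shared and 15.3% of the iAtoh1-only class.

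Pou4f3 peaks of the same iP+A cells coincided with 10.4% of the iAtoh1-only class (9.73 to 11.1), 20.1% of the shared class (19.2 to 21.0) and 25.8% of the iP+A-only class (24.99 to 26.6). The difference of 5.66 points between iP+A-only and shared sites (4.45 to 6.87, 17 of 20 chromosomes) was larger outside the crowded megabases, at 12.4 points (11.2 to 13.7), from 25.4% and 12.9%, with 5.50% for iAtoh1-only. It depended on the authors' peak filter: with all called Atoh1 and Pou4f3 peaks it was −17.0 points, and −3.11 points with the crowded megabases also left out. About 52.2% of the iAtoh1, 52.1% of the iP+A and 50.6% of the iP+A Pou4f3 peaks that were called but not kept lay in crowded megabases. Pou4f3 and Atoh1 summits at iP+A-only sites outside the crowded megabases were a median of 42.5 bp apart, and 63.0 bp apart at shared sites.

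Most of the strongest iP+A-only sites were also sites of Pou4f3. With the crowded megabases left out, a Pou4f3 peak was present in iP+A at 15.7% of iP+A-only sites with −log10 p under 5, 18.7% from 5 to 10, 38.9% from 10 to 20 and 78.8% at 20 or more (391 of 496, 74.97 to 82.3). Shared sites of the same strength in iP+A gave 11.01%, 10.8%, 11.3% and 18.95% (16.9 to 21.1, 268 of 1414). With all called peaks the values at 20 or more were 78.5% (74.6 to 82.0) and 34.7% (32.4 to 37.0), and from 10 to 20 they were 42.1% and 30.1%. In the weaker ranges the direction turned with all called peaks, to 19.01% of iP+A-only against 32.8% of shared sites under 5 and 21.6% against 28.6% from 5 to 10. With kept peaks and the crowded megabases included, the shares were 15.5% and 15.8% under 5, 19.8% and 19.1% from 5 to 10, 39.5% and 20.7% from 10 to 20, and 76.8% and 21.9% at 20 or more. The Pou4f pattern rose with strength in the same way, from 8.05% through 11.3% and 24.0% to 36.1% (31.9 to 40.5) of iP+A-only sites, and stayed between 2.40% and 3.67% of shared sites. Starts went the other way: 36.5%, 32.4%, 17.4% and 6.05% of iP+A-only sites lay within 1 kb of one, against 22.9% of shared sites at 20 or more. The AtEAM pattern at that strength was at 23.4% (19.7 to 27.4) of iP+A-only and 29.3% (26.9 to 31.7) of shared sites.

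**Figure D4:**
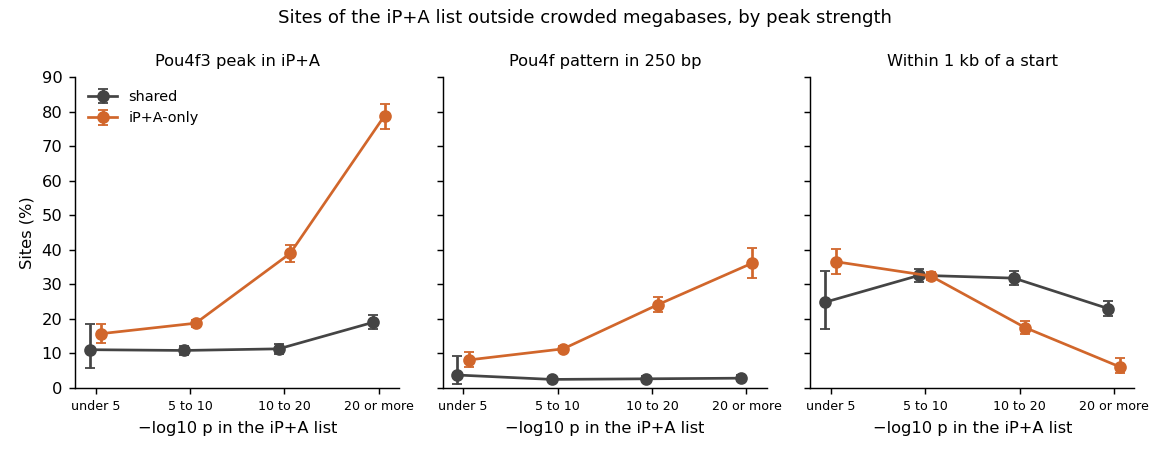
Percent of iP+A sites outside the crowded megabases (vertical axis) with a Pou4f3 peak in iP+A (left), with the Pou4f pattern (middle) or within 1 kb of a start (right), in 4 ranges of −log10 p in the iP+A list (horizontal axis), for shared and iP+A-only sites. Bars are exact 95% intervals. At 20 or more, 78.8% of iP+A-only but 18.95% of shared sites have a Pou4f3 peak, and 6.05% against 22.9% are near a start.

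The 100 iP+A-only sites with the highest fold (7.96 or more) showed the same features: 96 had a Pou4f3 peak in iP+A, 43 the Pou4f pattern, 66 CAGCTG and 3 were near a start. Of them, 95 were also Atoh1 sites in iGPA and 11 in iG+A. Besides the Gm9961 and Thsd7a sites, the named ones were nearest to Gsg1l with a fold of 20.4, Zcwpw2 with 16.9 and Rbpsuh-rs3 with 16.1. Their summits lay 77594, 91570 and 79445 bp from those gene starts, the first and last in introns. All 5 had Pou4f3 peaks in iP+A, iPou4f3 and iGPA, and 1 of them, at Gsg1l, was in iG+A. The 100 strongest iAtoh1-only sites (4.97 or more) were unlike these: 44 were in crowded megabases, 9 had a Pou4f3 peak, 9 the Pou4f pattern and 32 CAGCTG. Of these iAtoh1-only sites, 56 were also Atoh1 sites in iGPA and 63 in iG+A. The named ones besides Chst15 were a TTAGGG repeat nearest to Tbc1d2b with a fold of 8.00, Vmn1r47, a vomeronasal receptor gene, with 7.94, Gm13242 with 7.58, Stra6, a retinol transporter gene, with 7.57 within 1 kb of a start, and Gm3739 with 7.51.

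Atoh1 lists of lines outside the comparison met the iP+A-only class unequally. Among sites in other megabases, 51.6% of iP+A-only sites (50.6 to 52.7) were Atoh1 sites in iGPA and 20.8% (20.0 to 21.7) in iG+A. The iGPA cassette encodes Pou4f3 and that of iG+A does not. The iGPA share was the higher on 20 of 20 chromosomes. For iAtoh1-only sites the shares were 37.4% (36.0 to 38.8) and 35.3% (33.9 to 36.6), higher in iGPA on 14 of 20. For shared sites they were 82.9% and 76.9%. The iGPA list is longer, with 26231 kept peaks against 20504. Over all sites the iP+A-only shares were 47.2% and 22.5%, while the direction turned for iAtoh1-only sites, with 32.5% in iGPA and 34.3% in iG+A (higher in iGPA on 9 of 20 chromosomes). At −log10 p of 20 or more, 91.9% of the iP+A-only sites were in iGPA and 15.9% in iG+A, while 94.7% and 92.4% of the shared sites were.

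Pou4f3 had also been mapped in cells without the Atoh1 transgene. Outside crowded megabases, peaks of iPou4f3 lay at 22.3% of iP+A-only, 13.9% of shared and 7.46% of iAtoh1-only sites, and peaks of iG+P at 23.1%, 15.0% and 12.4%. Over all sites the shares were 20.4%, 15.6% and 8.16% for iPou4f3 and 26.3%, 25.6% and 22.4% for iG+P, where the difference between iP+A-only and shared sites was 0.70 points (−0.58 to 1.98). Of all iP+A-only sites, 1936 (17.4%) had Pou4f3 in iP+A and also in at least 1 of these lines, and 33.4% of them held the Pou4f pattern and 9.71% AtEAM. A further 940 (8.43%) had Pou4f3 in iP+A but in neither line, with Pou4f at 21.1% and AtEAM at 14.3%. Another 1800 (16.1%) had Pou4f3 in at least 1 of these lines but not in iP+A, with Pou4f at 9.06% and AtEAM at 4.28%, and 41.4% of them lay within 1 kb of a start. The remaining 6472 (58.1%) had no Pou4f3 peak in iP+A, iPou4f3 or iG+P. They held AtEAM at 16.2% and Pou4f at 8.68%, near the 8.84% of flanks. Among sites without a Pou4f3 peak in iP+A, whatever the other lists, Pou4f was at 8.765% of iP+A-only and 3.67% of shared sites. Gfi1 peaks of iGPA lay at 8.00% of shared, 4.82% of iP+A-only and 1.98% of iAtoh1-only sites.

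**Figure D5:**
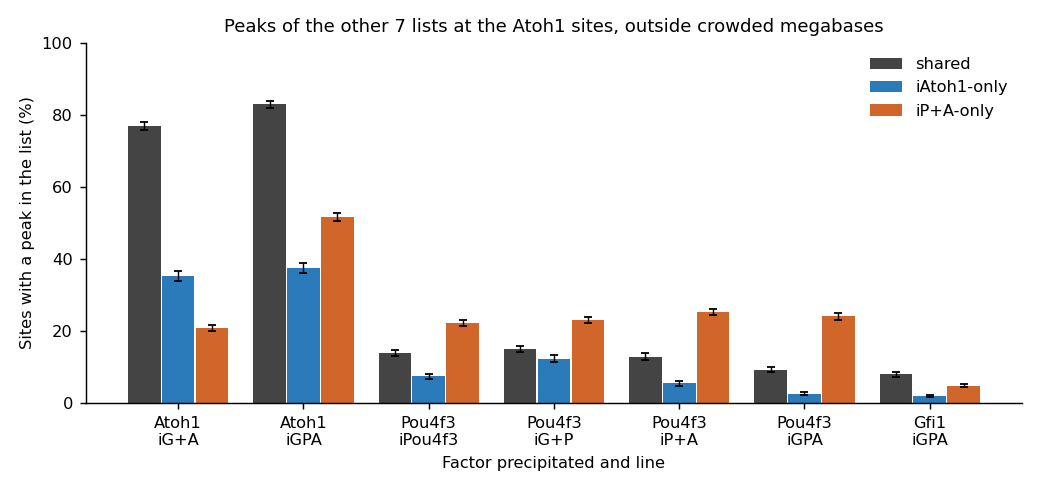
Percent of the sites of each class outside the crowded megabases (vertical axis, bars with exact 95% intervals) that have a peak in each of the other 7 lists (horizontal axis, factor and line). The iP+A-only bar is 20.8% for Atoh1 in iG+A and 51.6% in iGPA, while the iAtoh1-only bars are 35.3% and 37.4%.

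Sites were assigned to the nearest gene start to see which genes each class fell on. Of 22601 genes, 19.7% were nearest to at least 1 shared site, 17.2% to at least 1 iAtoh1-only site and 27.3% to at least 1 iP+A-only site. Sites of both lists fell on 5332 genes, of iAtoh1 without iP+A on 1398 and of iP+A without iAtoh1 on 3046. Many iP+A-only sites shared a nearest gene with sites of iAtoh1: 64.6% had as nearest gene one with an iAtoh1 site, and 51.9% one with a shared site. Outside the crowded megabases, the genes with most shared sites included Spin4 with 23, the odorant receptor gene Olfr161 with 17, Fam92b and Gse1 with 13 each, Auts2, a neurodevelopmental gene, with 12, and Gadd45g, a growth arrest gene, with 10. The shares of genes below are descriptions without a test, since genes with wide surroundings collect more sites. They can be set against the shares over all genes given above, and shares with a Pou4f3 peak against 25.8% of all iP+A-only sites.

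Genes of the Notch pathway, through which cells adopting a neural or hair cell fate hold back their neighbours, were nearest to shared sites for 17 of 23 genes (73.9%), to iAtoh1-only sites for 13 (56.5%) and to iP+A-only sites for 11 (47.8%). Over all genes these shares were 19.7%, 17.2% and 27.3%. The strongest sites were shared. Hes6, a Hes-family gene induced by proneural factors, had a site at −258 bp from its start with folds of 15.3 in iAtoh1 and 20.7 in iP+A. Hey1, a Notch-responsive repressor, had 13.7 and 18.8 at a distal site, Heyl 11.6 and 8.28, the ligand Dll3 8.06 and 11.4 at its start, and the ligand Dll1 7.94 and 8.69. The receptor Notch1 had 8.06 and 6.68. Hey1 also had an iP+A-only site with a fold of 6.56 and a Pou4f3 peak. Of the 20 iP+A-only sites of this list, 3 (15.0%) had a Pou4f3 peak in iP+A.

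All 7 genes for E proteins, the dimer partners of Atoh1, and Id proteins, their inhibitors, had an iP+A-only site. Of the 7, 6 (85.7%) had a shared site and 2 (28.6%) an iAtoh1-only site. Over all genes, 27.3% had an iP+A-only, 19.7% a shared and 17.2% an iAtoh1-only site. Id1 had a shared site with 13.8 in iAtoh1 and 11.6 in iP+A. Id2 had 4 shared and 9 iP+A-only sites, 3 of the latter with Pou4f3. The E protein genes Tcf3, Tcf4 and Tcf12 had 2, 1 and 1 iP+A-only sites, with folds up to 4.63 at Tcf3.

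Of the 17 proneural factors, 3 had a shared site (17.6%), 4 an iAtoh1-only site (23.5%) and 2 an iP+A-only site (11.8%). Over all genes these shares were 19.7%, 17.2% and 27.3%. Besides Nhlh1 and Nhlh2, the gene Atoh1 itself had 3 shared sites, the strongest 509 bp from its start with 4.89 in iAtoh1 and 4.84 in iP+A. Since the inserted cassette carries Atoh1 coding sequence, reads at that place may come from the cassette or the gene and cannot be told apart. Neurog1 and Neurod1 had no site of any class.

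Among 16 regulators of hair cells, 12 had an iP+A-only site, 8 a shared and 6 an iAtoh1-only site, and 9 of the 25 iP+A-only sites (36.0%) had a Pou4f3 peak, against 25.8% of all iP+A-only sites. Across the lists with at least 7 iP+A-only sites, this share ran from 15.0% (Notch pathway) to the 36.0% given here. It was 33.3% (5 of 15) for regulators of mesoderm, endoderm and blood, so a raised share was not particular to hair cell regulators. Of the 17 shared sites of the hair cell regulators, 5 (29.4%) had a Pou4f3 peak, against 20.1% of all shared sites. These differences were not tested. Lhx3, a LIM-homeodomain gene of hair cells, had a shared site with 4.28 in iAtoh1 and 11.7 in iP+A and 2 iP+A-only sites with 4.52 and 3.66. Barhl1, a homeodomain gene needed for hair cell survival, had 4 iP+A-only sites, with folds up to 5.06, of which 3 had a Pou4f3 peak. It also had 3 shared sites, with folds up to 4.64 in iAtoh1 and 4.45 in iP+A. Gfi1 had 2 iP+A-only sites with 2.69 and 3.01 and no site in iAtoh1. Pou4f3 had a shared site in a coding exon with 2.69 and 3.12, where cassette and gene cannot be told apart in iP+A, and an iP+A-only site at −1349 bp with 3.23. The splicing regulator gene Srrm4 had 5 shared sites, with 9.04 in iAtoh1 and 9.57 in iP+A at the most.

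Of 29 genes for hair cell structure and transduction, 14 (48.3%) had an iP+A-only site, 7 (24.1%) a shared and 9 (31.0%) an iAtoh1-only site. Over all genes these shares were 27.3%, 19.7% and 17.2%. No site of any class fell on 12 of the 29, and none on 56.8% of all genes. Clrn1, which encodes clarin 1 of hair cells, had a shared site with 9.04 in iAtoh1 and 8.18 in iP+A. Whrn, which encodes the stereocilia protein whirlin, had an iP+A-only site with a fold of 7.31, the Pou4f pattern and a Pou4f3 peak. Whrn also had 2 iAtoh1-only sites and 2 shared sites, the latter with folds up to 4.52 in iAtoh1 and 4.20 in iP+A. Calb2, the calretinin gene, had its 1 site in the iP+A-only class, with 6.24, the Pou4f pattern and a Pou4f3 peak, and so did Espnl, an espin-like actin-bundling gene, with 4.84. Cib2, a transduction complex gene, had an iAtoh1-only site with 5.86. Myo7a, Otof and Tmc2 had no site.

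Neuronal markers had 36 iP+A-only, 15 shared and 8 iAtoh1-only sites, on 12, 10 and 6 of 22 genes (54.5%, 45.5% and 27.3%). Over all genes these shares were 27.3%, 19.7% and 17.2%. Map2 (Mtap2 in the annotation) had an intronic iP+A-only site with 8.50, the Pou4f pattern and a Pou4f3 peak, and no site in iAtoh1. Elavl4, a neuronal RNA-binding protein gene, had 6 iP+A-only sites, 4 with Pou4f3, with folds from 2.37 to 3.98, and no site in iAtoh1 either. Elavl2, of the same family, had 6 iP+A-only sites beside 1 shared site. Nefm had the highest iP+A-only fold of the list, 10.7, in a 4 bp repeat with no Pou4f3 peak. Tubb3, the neuronal tubulin gene, had a shared site with 6.47 and 8.71.

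The remaining lists had members in all classes. Over all genes, 19.7% had a shared, 17.2% an iAtoh1-only and 27.3% an iP+A-only site. Axon guidance genes had shared sites on 21 of 29 (72.4%), iAtoh1-only sites on 18 (62.1%) and iP+A-only sites on 22 (75.9%). Of their 51 iP+A-only sites, 12 (23.5%) had a Pou4f3 peak. Robo1, for example, had an iP+A-only site of 6.67 with a Pou4f3 peak, beside 3 iAtoh1-only sites of up to 4.40. Plxna2 had 8 iP+A-only sites of up to 6.02 and no Pou4f3 peak, beside 2 shared sites and 1 iAtoh1-only site. POU, LIM and Onecut homeodomain genes had 10, 6 and 7 of 19 (52.6%, 31.6% and 36.8%). Lhx2 had 8.31 in iAtoh1 and 11.2 in iP+A at a shared site, and Barhl2 had 2.69 and 5.81 at a shared site. Cell cycle genes had 10, 9 and 11 of 17 (58.8%, 52.9% and 64.7%). Among them, Gadd45g had a shared site of 11.1 and 10.5 and an iP+A-only site of 9.47 with the Pou4f pattern and a Pou4f3 peak. Mycn had an iP+A-only site of 6.02, likewise with both, and 4 shared sites of up to 6.60 in iAtoh1 and 9.79 in iP+A.

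Pluripotency regulators had shared, iAtoh1-only and iP+A-only sites on 4, 5 and 4 of 15 genes (26.7%, 33.3% and 26.7%). Klf4 had a shared site of 6.96 and 5.58, and Pou5f1 and Nanog had none. Regulators of mesoderm, endoderm and blood had 8, 6 and 8 of 18 (44.4%, 33.3% and 44.4%), with Sox17 at 8.67 in iAtoh1 and 5.16 in iP+A, in a 7 bp repeat. Over all genes these shares were 19.7%, 17.2% and 27.3%. Over the 11 lists, 212 of 212 genes were matched. All sites of these lists lay outside the crowded megabases except the 3 of Nhlh1.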

How the data were processed

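ChIP-seq peak lists of Atoh1 in iAtoh1 and iP+A were compared, with the other 7 lists of the series as further readouts. Per the study's methods, reads were trimmed, aligned to mm9 with Bowtie 2, and freed of duplicates, of reads with low mapping quality and of blacklisted regions. Peaks were called by the authors with MACS 2 (p 0.05) on merged replicates against merged inputs. The Gfi1 ChIP had no replicate to merge. Tool versions are not given in the sources used here. The deposited fold enrichment is the ratio of summit signal to local background, and the deposited −log10 p and −log10 q are those of the peak caller. The summit lists name the peaks the authors kept, and the filter was not stated. Among kept peaks, the lowest −log10 q was 1.31 in iAtoh1 and 1.32 in iP+A. Groups were taken from sample titles, and the list named for 3 factors was taken as iGPA.

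Windows of 300 bp with 1 bp overlap were joined. Patterns were searched on both strands in 250 bp around the summit (the iP+A summit for shared sites) of the NCBIM37 sequence, whose lengths contain all peaks. Starts came from all annotated transcripts, and nearest genes from genes with coding sequence or in a list. Background was recovered from fold and −log10 p for 99.9% of peaks. Shares have Clopper-Pearson and differences Newcombe 95% intervals, which cover counting error and not dependence between nearby sites. No p-value was computed. Python 3.11.15, numpy 2.4.6, pandas 2.3.3 and scipy 1.17.1 were used, and the scripts were tested on simulated data. Tandem repeats are units of up to 12 bp filling at least 80% of 100 bp around the summit, and longer units of up to 60 bp were counted separately.

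Members, lists and tests were chosen with earlier results of these data known. Sites named were the 2 with the highest fold per class, the 5 highest outside repeats, and the 3 highest and 3 lowest shared ratios. Genes named were those with most sites and members of the 11 lists, from which examples were taken after their values were seen. Values of some list members are not reported here.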

Additional observations from a re-analysis of the deposited data

How the results depend on the processing

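No paired analysis was possible because each Atoh1 list was made from merged replicates, which also left no replicate to leave out. The crowded-megabase and copied-sequence settings, and their combination with all called peaks, were chosen after seeing the data.

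The percent of iAtoh1 sites shared was 42.1 with 100 bp windows, 58.1 with 1000 bp windows, 56.8 with −log10 p of at least 10, 59.4 with all called peaks, 45.6 with lists of equal length, 54.4 without crowded megabases, 56.4 without copied summits and 57.7 with all called peaks outside crowded megabases. The percent of iP+A sites shared was 34.6, 45.5, 39.8 (full peak intervals), 52.5 (all called peaks), 45.2 (equal length), 39.1 (without crowded megabases) and 45.4 (all called peaks outside them), the first 2 with 100 and 1000 bp windows.

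The AtEAM difference, iP+A-only minus iAtoh1-only, reversed to −0.514 points without crowded megabases and −0.180 without copied summits. It was 1.06 with 1000 bp windows, 3.92 at −log10 p of at least 10, 3.42 with CANNTG, 9.8 with 3 E-box cores in its place, and 0.774 with all called peaks outside crowded megabases. The Pou4f3 peak difference, iP+A-only minus shared, reversed to −17.0 points with all called peaks and −3.11 with these outside crowded megabases. It was 2.17 with 1000 bp windows, 3.69 with full intervals, 14.5 at −log10 p of at least 10, 8.78 with equal lists, 0.704 with the iG+P Pou4f3 list, 12.4 without crowded megabases and 12.05 without copied summits. The causes were not tested.

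The Pou4f pattern difference stayed positive, at 10.1 (1000 bp windows), 13.7 (−log10 p of at least 10), 7.28 (all called peaks), 10.8 (equal lists), 5.9 (100 bp search), 1.04 (no mismatch), 3.57 (TAATTA), 12.1 (without crowded megabases), 12.02 (without copied summits) and 10.25 (all called peaks outside crowded megabases). The start difference, shared minus iAtoh1-only, stayed positive, at 10.8 (−log10 p of at least 10), 4.36 (all called peaks), 6.79 (5 kb), 6.5 (without copied summits) and 6.89 (all called peaks outside crowded megabases). The values of these 6 results under the other alternatives tried stayed within their intervals. Depth per library was not used, and a site of 1 list only was not called or not kept in the other.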
